A study of Arabidopsis thaliana with 12 samples.

Results

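The miR397 and miR408 microRNAs (miRNAs) were followed through 12 small RNA libraries from Arabidopsis thaliana shoots. All names beginning with miR397 or miR408 were taken from a count table of 390 names, which gave 4 members: miR397a, miR397b, miR408-5p and miR408-3p, listed as ath-miR397a, ath-miR397b, ath-miR408-5p and ath-miR408-3p. The laccase regulator miR857, which belongs with them by function, was not analysed here. The groups were hasty knockout shoots in low nitrogen (low N), Col-0 wild-type (WT) shoots in low N, hasty knockout shoots in the control condition and WT shoots in the control condition, with 3 biological replicates in each. Seedlings were 10 days old, with 5 days on standard nutrients before 5 days of treatment. The labels give no allele for the hasty knockout, which carries no other named modification, and they describe the low N medium but not the control medium. The levels of HASTY itself are not measured by these libraries, so the genotype was taken from the labels. The 2 by 2 layout sets hasty against WT under both nitrogen conditions, low N shoots against control shoots of the same genotype, and the response to low N in hasty against that in WT.

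Laccases are copper-containing oxidases of the cell wall that polymerise lignin monomers, and plantacyanin is a small blue copper protein. In plants the transcription factor SPL7 acts on GTAC motifs upstream of the miR397, miR398, miR408 and miR857 genes when copper is scarce, and these miRNAs then repress transcripts of copper proteins that can be spared. HASTY is the plant orthologue of exportin-5 and takes part in miRNA biogenesis and in the movement of miRNAs between cells. None of the target transcripts was measured here.

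The mature sequences are shown because miR397a and miR397b are nearly identical and because the miR408 names are the arms of 1 hairpin. They are written as DNA from RefSeq TAIR10.1, 5′ to 3′, with the seed (bases 2 to 8) in capitals.
miR397b: tCATTGAGtgcatcgttgatg
miR397a: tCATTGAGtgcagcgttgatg
miR408-5p: aCAGGGAAcaagcagagcatg
miR408-3p: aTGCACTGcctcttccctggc
All 4 are 21 bases long, and miR397a and miR397b share the seed, which no other known name in the table carries. The miR397 sequences differ at 1 base, G13T, counted from 1 at the 5′ end with miR397a first. A read with that base misread would be listed under the other name, and the counting of mismatched reads is not stated in the labels or the table. The level of miR397a is therefore uncertain. The gene of miR397b (MIR397b, AT4G13555) gives its mature product at chr4:7878730-7878750 on the minus strand and overlaps no other annotated gene. It lies 90 bases from MIR857 on the same strand. The gene of miR397a (MIR397a, AT4G05105) gives its product at chr4:2625960-2625980 on the plus strand, antisense to an intron of the nucleoside transporter gene ENT6. MIR408 (AT2G47015) gives miR408-5p at chr2:19319866-19319886 and miR408-3p at chr2:19319933-19319953 on the plus strand, antisense to a noncoding part of an exon of AT2G47020.

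The best ungapped complementary site of each miRNA was looked for in the longest mRNA of 27440 genes. The sites below are those in laccase and plantacyanin coding exons that the results on miR397b and miR408-3p bear on, 5′ to 3′ on the mRNA strand. Capitals mark bases that pair with the miRNA as A with T or G with C. Any other pair, G with T included, was counted as a mismatch.
LAC2 with miR397b, chr2:12526364-12526384: aATCAAtGcTGCACTCAATGA
IRX12 with miR397b, chr2:15936120-15936140: agTCAACGcTGCACTtAATGA
LAC17 with miR397b, chr5:24169068-24169088: aATCAAtGcTGCACTtAATGA
ARPN with miR408-3p, chr2:827696-827716: cCaAGGGAAGAGGCAGTGCAT
LAC3 with miR408-3p, chr2:12889603-12889623: aCCAGtGAAGAGGCtGTGCAg
LAC12 with miR408-3p, chr5:1594966-1594986: GCCgGtGAAGAGGCtGTGCAa
LAC13 with miR408-3p, chr5:2210756-2210776: GCCgGtGAAGAGGCtGTGCAg
LAC2, IRX12 (laccase 4) and LAC17 are laccases, the last 2 known for lignification of stems, and ARPN encodes plantacyanin. With miR397b, the LAC2 site had 3 mismatches and those of IRX12 and LAC17 had 4 each. With miR397a these sites had 2, 3 and 3 mismatches, so each had 1 fewer. The ARPN site had 2 mismatches to miR408-3p, and the LAC3, LAC12 and LAC13 sites had 4. Sites with at most 4 mismatches were found in 14 of the 27440 genes for miR397b, 11 for miR397a and 10 for miR408-3p, a count that for miR408-3p includes AT2G47020, the gene antisense to its own locus. For miR408-5p, 16 genes had such a site, AT2G47020 again included, and none of the 16 laccase genes searched was among them. A match is a description of the letters and not evidence of cleavage.

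The windows from 250 bases before to 50 bases after the annotated start of the miRNA genes are shown because the members are compared with miR398 in low N further on, and because GTAC motifs lie close together in them. GTAC reads the same on both strands and is in capitals. The annotated start is that of the precursor in RefSeq TAIR10.1 and not a mapped start of transcription.
MIR397b, chr4:7878711-7879010, minus strand: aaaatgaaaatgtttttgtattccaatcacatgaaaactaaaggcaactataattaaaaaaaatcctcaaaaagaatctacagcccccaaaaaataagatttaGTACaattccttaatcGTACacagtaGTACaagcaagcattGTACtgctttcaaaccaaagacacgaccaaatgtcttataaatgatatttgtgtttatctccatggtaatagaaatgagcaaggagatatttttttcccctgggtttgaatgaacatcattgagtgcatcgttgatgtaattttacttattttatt
MIR408, chr2:19319564-19319863, plus strand: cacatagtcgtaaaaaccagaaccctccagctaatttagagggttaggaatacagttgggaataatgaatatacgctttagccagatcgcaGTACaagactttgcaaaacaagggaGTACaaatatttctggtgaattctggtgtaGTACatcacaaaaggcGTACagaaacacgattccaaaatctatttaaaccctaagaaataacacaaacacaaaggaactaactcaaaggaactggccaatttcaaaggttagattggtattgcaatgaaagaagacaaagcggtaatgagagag
Both windows held 4 GTAC motifs, and that of MIR397a held 3. Those of MIR397b began 147, 131, 121 and 106 bases before the start, those of MIR397a 143, 136 and 118 bases before it, and those of MIR408 159, 134, 104 and 88 bases before it. Of 33054 genes with such a window, 39.3% held at least 1 motif, 2.05% at least 3 and 0.43% at least 4. Among the 326 miRNA genes the shares were 37.7%, 3.07% and 1.84%. MIR398b held 5, MIR398c held 3 and MIR398a held 0.

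**Figure D1:**
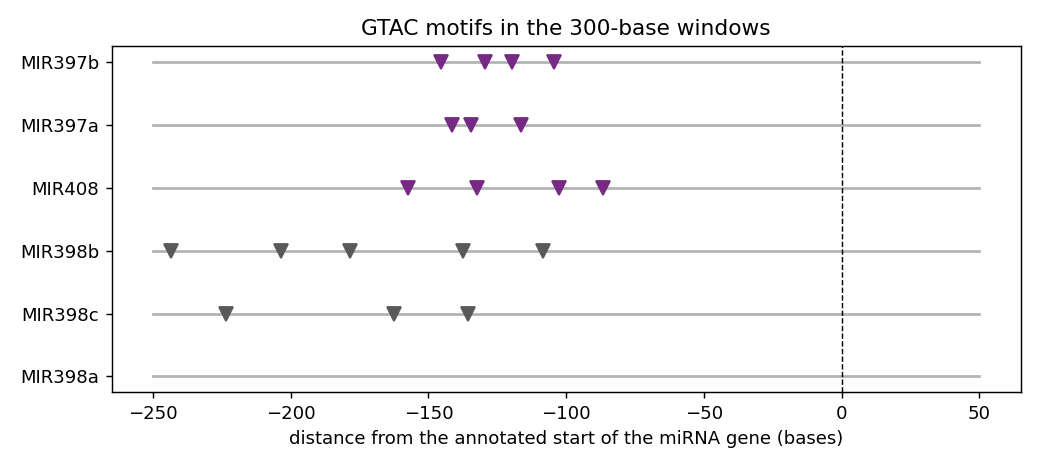
GTAC motifs (triangles) by distance in bases from the annotated start of each miRNA gene (dashed line), in windows of 300 bases (grey lines). The motifs of MIR397b, MIR397a and MIR408 lie between 159 and 88 bases before the start, and MIR398a has 0.

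Levels are given as CPM, the count scaled to 1000000 listed counts per library after TMM scaling, as mean ± SD with n = 3 per group, and changes as log2 differences with the standard error from edgeR's quasi-likelihood fit over all 12 libraries. Table totals ranged from 1292752 to 3226269 counts and were lower in hasty and in low N, and their part in the results was not tested. All levels are relative to the other listed miRNAs, and in whole shoots fewer cells making a miRNA and less of it per cell cannot be told apart. All 4 members had counts above 0 in all 12 libraries and passed the filter on low counts, which kept 273 names.

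The laccase regulator miR397b was lower in hasty and lower in low N, by 2.6-fold to 3.15-fold in the 4 contrasts. Its levels were 84.8, 100.7 and 80.2 CPM in hasty low N, 198.9, 264.9 and 227.4 CPM in WT low N, 255.3, 289.0 and 213.5 CPM in hasty control, and 730.8, 646.8 and 799.3 CPM in WT control. WT control stood above and hasty low N below every other library, while WT low N and hasty control overlapped. In counts these were 111 to 146 in hasty low N, 484 to 530 in WT low N, 399 to 694 in hasty control and 2456 to 2823 in WT control. In low N, miR397b averaged 88.6 ± 10.8 CPM in hasty and 230.4 ± 33.1 CPM in WT, a log2 change of -1.38 ± 0.15 (SE; 2.6-fold lower, edgeR adjusted p = 8.78e-05). In the control condition it averaged 253 ± 37.8 CPM in hasty and 726 ± 76.4 CPM in WT (-1.52 ± 0.15, 2.87-fold lower, edgeR adjusted p = 4.4e-05). Low N lowered it in both genotypes, with a log2 change of -1.51 ± 0.15 in hasty (2.85-fold, edgeR adjusted p = 0.000114) and -1.66 ± 0.15 in WT (3.15-fold, edgeR adjusted p = 7.4e-05). Its mean in hasty low N was 8.19-fold below that in WT control. Ordered from the lowest change over all 273 tested names, miR397b was 37th for hasty in low N and 36th for hasty in control. For low N it was 33rd in hasty and 43rd in WT. Among the 167 tested names above 0 in all libraries it was 11th in both genotype contrasts. In the low N contrasts it was 5th of these in hasty and 14th in WT.

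The sister name miR397a, of the same seed, was listed at few counts: 4, 6 and 6 in hasty low N, 15, 10 and 13 in WT low N, 24, 14 and 16 in hasty control and 73, 62 and 65 in WT control. WT control was again above all other libraries, and hasty low N below them. Its levels were 3.70 ± 0.94 CPM in hasty low N, 5.69 ± 0.61 CPM in WT low N, 8.53 ± 2.68 CPM in hasty control and 18.7 ± 2.90 CPM in WT control. Low N lowered it in hasty (-1.19 ± 0.34, 2.29-fold, edgeR adjusted p = 0.032) and in WT (-1.71 ± 0.34, 3.26-fold, edgeR adjusted p = 0.0038). In control it was lower in hasty than in WT (-1.13 ± 0.33, edgeR adjusted p = 0.0204). In low N the difference of -0.62 had a 95% interval of -1.38 to 0.15 (edgeR adjusted p = 0.219). The call in control was lost without hasty control replicate 2 or 3 or without WT control replicate 1 (edgeR adjusted p = 0.0898, 0.0557 and 0.0644) and with no filter on low counts (0.0944). The low N call in hasty was lost without hasty control replicate 1 or 3, WT control replicate 1, or hasty low N replicate 1 or 2 (edgeR adjusted p = 0.0599 to 0.122), and with no filter (0.184), only the groups compared (0.199), each mature sequence counted once (0.0525) or the replicate number as a block (0.11).

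**Figure D2:**
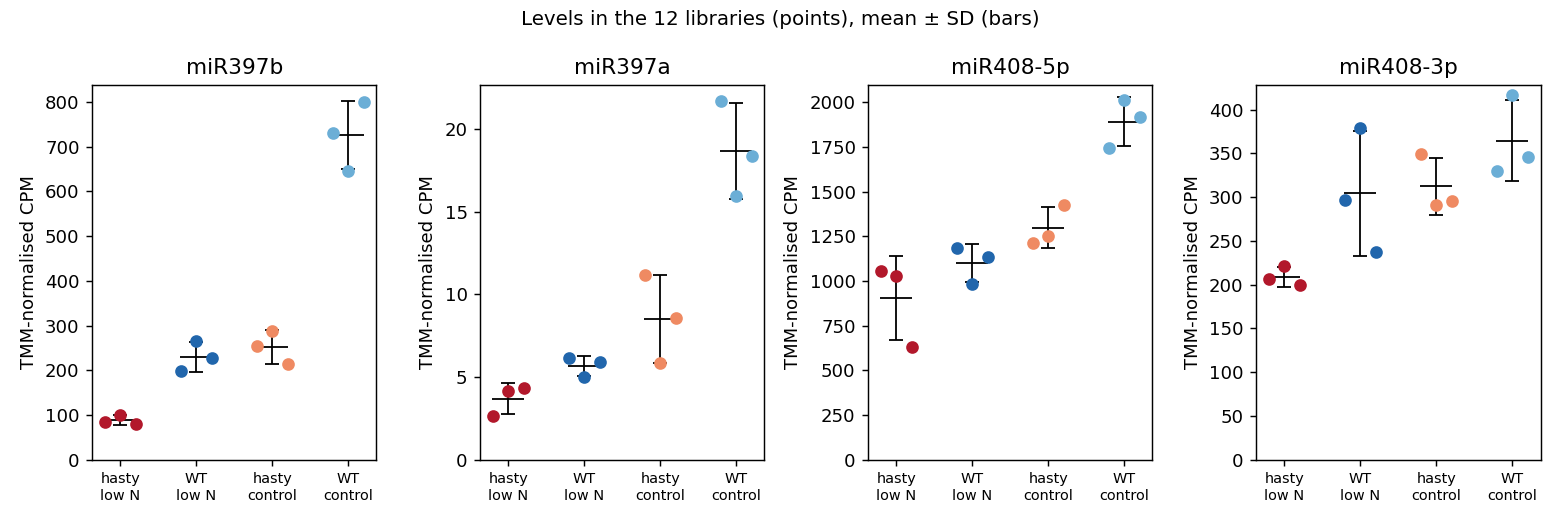
Levels of the 4 members in TMM-normalised CPM (linear axes that start at 0), with 1 point per library and bars for mean ± SD (n = 3). For miR397b, hasty low N sits at 80.2 to 100.7 CPM, WT low N and hasty control overlap between 198.9 and 289.0 CPM, and WT control lies at 646.8 CPM or above.

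The arm miR408-5p was the most abundant member, with 1055, 1029 and 633 CPM in hasty low N, 1183, 981 and 1136 CPM in WT low N, 1212, 1252 and 1426 CPM in hasty control and 1745, 2013 and 1916 CPM in WT control. WT control lay above all other libraries, and the low N groups overlapped each other. In WT, low N lowered it to 1100 ± 105 CPM, against 1891 ± 136 CPM in control (-0.78 ± 0.18, 1.72-fold, edgeR adjusted p = 0.00759). In control it was lower in hasty, at 1297 ± 114 CPM, than in WT (-0.54 ± 0.18, 1.46-fold, edgeR adjusted p = 0.0307). This call was lost without hasty control replicate 1 or 2 or WT control replicate 2 or 3 (edgeR adjusted p = 0.0531 to 0.0889). It was also lost with median-of-ratios scaling (edgeR adjusted p = 0.0933) and in DESeq2 (DESeq2 adjusted p = 0.0549). In hasty, low N gave 906 ± 237 CPM and control 1297 ± 114 CPM without overlap, but the difference of -0.52 (95% interval -0.91 to -0.12) missed the threshold (edgeR adjusted p = 0.0648). It passed without hasty low N replicate 1 (0.0463, edgeR) and with library totals (edgeR adjusted p = 0.0107). It also passed narrowly in limma (limma adjusted p = 0.0476) and with each mature sequence counted once (edgeR adjusted p = 0.0469). In low N, hasty minus WT was -0.28 with a 95% interval of -0.68 to 0.12 (edgeR adjusted p = 0.247).

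The other arm, miR408-3p, is the one known to act on plantacyanin and laccase transcripts. It had 206, 221 and 199.5 CPM in hasty low N, 296, 379 and 237 CPM in WT low N, 349.5, 291.5 and 296 CPM in hasty control and 330.3, 417 and 346 CPM in WT control. Hasty low N lay below all other libraries, and the other 3 groups overlapped. In low N it was lower in hasty, at 209 ± 11.2 CPM, than in WT, at 304 ± 71.1 CPM (-0.54 ± 0.17, 1.45-fold, edgeR adjusted p = 0.0298). In hasty, low N lowered it relative to 312 ± 32.2 CPM in control (-0.58 ± 0.17, 1.49-fold, edgeR adjusted p = 0.032). In control, hasty minus WT was -0.22 (95% interval -0.59 to 0.15, edgeR adjusted p = 0.332), and in WT, low N minus control was -0.26 (-0.63 to 0.11, edgeR adjusted p = 0.282). Both calls on miR408-3p ended with median-of-ratios scaling (edgeR adjusted p = 0.111 for genotype and 0.0728 for low N) and with no filter, where the genotype change was -0.32 (edgeR adjusted p = 0.249 and 0.167). Leaving out 1 library ended the genotype call for 7 of the 12: hasty control replicate 2, WT control replicate 1, any hasty low N replicate, or WT low N replicate 1 or 2 (edgeR adjusted p = 0.0554 to 0.216). Without hasty control replicate 2 the change was -0.34, and without WT low N replicate 2 it was -0.35. The low N call in hasty ended without any 1 hasty library or WT control replicate 1 (edgeR adjusted p = 0.0544 to 0.159). The low N change in WT passed without WT low N replicate 2 (-0.45, edgeR adjusted p = 0.0471) and with library totals (-0.63, edgeR adjusted p = 0.0259). In control, hasty minus WT passed with each mature sequence counted once (-0.45, edgeR adjusted p = 0.0426).

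Counted together, 2 of the 4 members were lower and 0 higher in hasty than in WT in low N, against 23.4% lower and 11.4% higher of all 273 tested names. In control 3 of 4 were lower and 0 higher in hasty, against 27.1% lower and 18.7% higher of all names. Low N lowered 3 of 4 and raised 0 in hasty (all names: 15.0% lower, 8.79% higher) and lowered 3 of 4 and raised 0 in WT (all names: 15.0% lower, 17.2% higher). All 3 hasty libraries lay below all 3 WT libraries for 3 of 4 members in low N and 3 of 4 in control, against 27.8% and 33.3% of all names. All 3 low N libraries lay below all 3 control libraries for 4 of 4 members in hasty and 3 of 4 in WT, against 24.2% and 20.1% of all names. The median log2 change of the members was -0.58 for hasty in low N, -0.84 for hasty in control, -0.89 for low N in hasty and -1.22 for low N in WT, beside 0.0, 0.0, -0.05 and 0.06 over all tested names. The hasty contrasts and the low N contrasts share libraries, so these counts are not independent. Nor are the members separate units: the miR408 names are arms of the same hairpin, and miR397a may hold misread reads of miR397b.

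**Figure D3:**
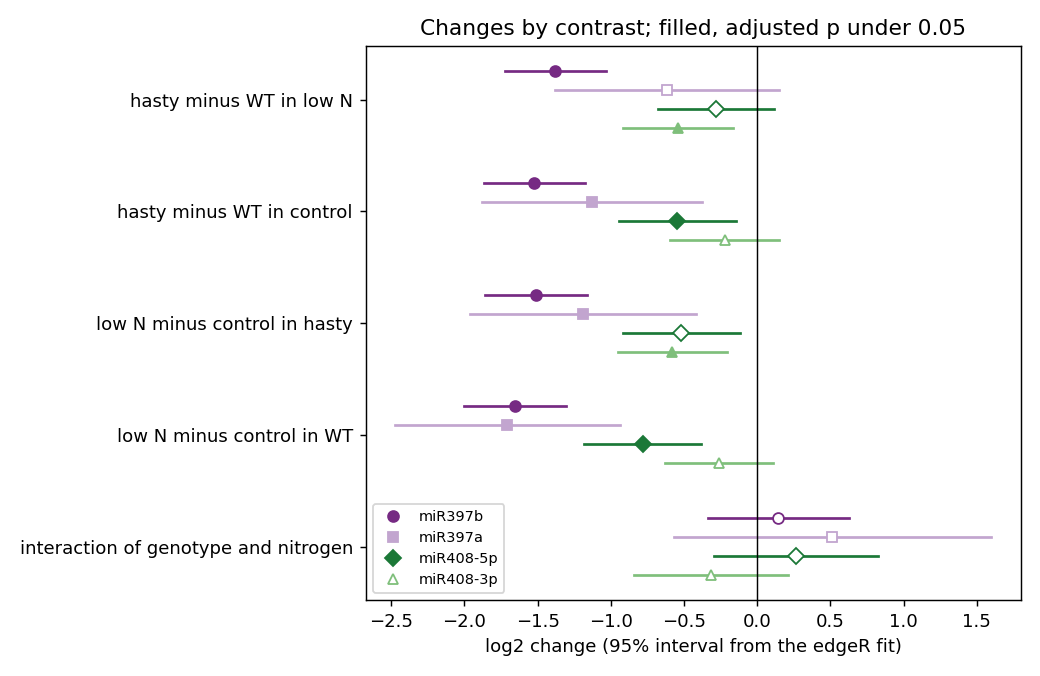
Log2 changes of the 4 members in each contrast with 95% intervals from the edgeR fit, with filled markers where the adjusted p was under 0.05. The markers of miR397b are filled in the 4 simple contrasts, between -1.66 and -1.38, and no marker is filled for the interaction.

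The low N response was not shown to differ between genotypes for any member. The interaction, low N response in hasty minus that in WT, was 0.14 for miR397b (95% interval -0.34 to 0.62, edgeR adjusted p = 0.909), 0.51 for miR397a (-0.57 to 1.60, edgeR adjusted p = 0.654), 0.26 for miR408-5p (-0.30 to 0.82, edgeR adjusted p = 0.654) and -0.32 for miR408-3p (-0.84 to 0.21, edgeR adjusted p = 0.586). Of all 273 names, 5 (1.83%) were called for the interaction in edgeR and 25 in DESeq2, with 0 members among them in either. Those 5 were miR157a-3p, miR157b-3p, miR169h and 2 predicted names, and they are named here after their values were seen. At an unadjusted p of 0.05, 27 names and 0 members passed in edgeR. In this fit the interval leaves room for differences of up to 0.62 on the log2 scale for miR397b. Under the alternative settings its interaction ranged from 0.04 to 0.46, with 0.41 under library totals, so the room is wider than this interval alone gives.

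Ratios within a library do not depend on the scaling between libraries. The count of miR408-5p was 4.31 ± 1.01 times that of miR408-3p in hasty low N, 3.79 ± 1.11 times in WT low N, 4.19 ± 0.68 times in hasty control and 5.21 ± 0.36 times in WT control (SD, n = 3). The arm that is not the known guide had the higher count in all 12 libraries. How closely counts of different sequences follow their amounts in the shoots was not tested. The differences tested below are averages over the levels of the other factor. The log2 ratio of miR408-3p to miR408-5p differed by 0.06 between hasty and WT (p = 0.765 by exact two-sided permutation within each nitrogen condition, and 0.765 after adjustment over 6 tests). Between low N and control it differed by 0.24 (exact permutation p = 0.255, adjusted p = 0.383). Its means were -2.08 in hasty low N, -1.88 in WT low N, -2.05 in hasty control and -2.38 in WT control. Hasty was thus lower than WT in low N and higher in control, and low N was higher than control in WT only. These opposite differences partly cancel in the averages. The count of miR397b was 25.0 ± 6.90 times that of miR397a in hasty low N, 41.2 ± 10.6 times in WT low N, 32.4 ± 14.9 times in hasty control and 39.2 ± 5.03 times in WT control. On the log2 scale hasty minus WT was -0.54 for this ratio (p = 0.05 by exact permutation, adjusted p = 0.1), and low N minus control was -0.13 (p = 0.6 by exact permutation, adjusted p = 0.72). The mean log2 ratio was lower in low N than in control in hasty (4.61 and 4.93) and slightly higher in WT (5.34 and 5.28). Without hasty control replicate 2 the difference by genotype was -0.72 (exact permutation, adjusted p = 0.01).

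**Figure D4:**
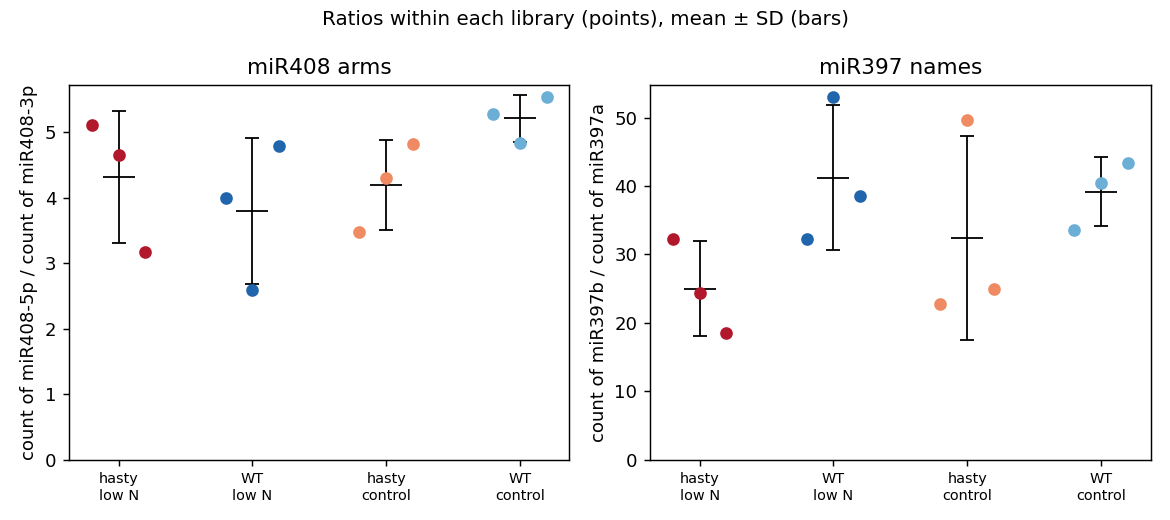
Ratios of counts within each library (points) with mean ± SD (n = 3), on linear axes that start at 0. The miR408-5p count exceeds that of miR408-3p in all 12 libraries, with WT control (4.83 to 5.53) above WT low N (2.59 to 4.79) and hasty control (3.47 to 4.82). For miR397b over miR397a, hasty low N (18.5 to 32.2) lies below WT low N (32.3 to 53.0) and WT control (33.6 to 43.4).

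Together the 4 members held 0.112% ± 0.013 of the listed counts in hasty low N, 0.149% ± 0.011 in WT low N, 0.188% ± 0.002 in hasty control and 0.35% ± 0.022 in WT control. Hasty minus WT was -0.10 percentage points and low N minus control -0.14 points, each with p = 0.005 by exact permutation, which is the smallest p that 400 assignments allow (adjusted p = 0.015). These shares are of the table totals, without TMM scaling. Under library totals, the median log2 change of all 273 names was -0.21 for hasty in control and 0.05 for hasty in low N. It was -0.27 for low N in WT and -0.13 for low N in hasty. With each mature sequence counted once, which lowers the total, the differences in share were -0.17 and -0.32 points (exact permutation, adjusted p = 0.045 and 0.03). Within it, miR397b took 7.49% ± 1.23 of the members' counts in hasty low N, 14.1% ± 2.22 in WT low N, 13.6% ± 2.40 in hasty control and 24.2% ± 2.88 in WT control. The share of miR408-5p was 74.4% in hasty low N, 67.0% in WT low N, 69.3% in hasty control and 63.0% in WT control.

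The miR398 family, which acts on Cu/Zn superoxide dismutases and also carries GTAC motifs at MIR398b and MIR398c, fell in low N, and miR398a-3p was also lower in hasty. Of 5 tested miR398 names, which have 3 mature sequences, all 5 were lower in low N in hasty and in WT. Of all names, 15.0% were lower in low N in hasty and 15.0% in WT. Another name, miR398a-5p, had 0 to 8 counts per library and did not pass the filter on low counts. In hasty against WT only miR398a-3p was called lower, in low N and in control, and 0 were called higher. Of all names, 23.4% were called lower in hasty in low N and 27.1% in control, so 1 of 5 is near that share. The abundant miR398b-3p averaged 2827 ± 257 CPM in hasty low N, 2741 ± 255 CPM in WT low N, 6615 ± 474.5 CPM in hasty control and 6253 ± 605 CPM in WT control. Its low N change was -1.23 ± 0.10 in hasty (edgeR adjusted p = 3.26e-05) and -1.19 ± 0.10 in WT (edgeR adjusted p = 5.17e-05), while hasty minus WT was 0.04 in low N (95% interval -0.18 to 0.27) and 0.08 in control (-0.14 to 0.31). The less abundant arm miR398b-5p changed by -1.28 in hasty and -1.47 in WT with low N (edgeR adjusted p = 0.000145 and 8.03e-05). The name miR398a-3p, given here after its values were seen, had 91.1 ± 2.19 CPM in hasty low N and 240.5 ± 23.2 CPM in WT low N (-1.40 ± 0.11, edgeR adjusted p = 7.14e-06), and 129 ± 7.03 CPM in hasty control and 333 ± 35.8 CPM in WT control (-1.36 ± 0.11, edgeR adjusted p = 1.1e-05). Differences between these names were not tested.

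The families miR169, miR395, miR398, miR399 and miR827 are known to be lowered by nitrogen shortage. They had 35 tested names of 18 mature sequences, with the 5 miR398 names included. Low N lowered 17 and raised 0 of them in hasty (7 sequences), and lowered 14 (5 sequences) and raised 1, miR827, in WT. The miR398 names made up 5 of the lowered names and 3 of the lowered sequences in each genotype. Over all 273 names, 15.0% were lower and 8.79% higher in hasty, and 15.0% were lower and 17.2% higher in WT. With each mature sequence counted once, 28 of all 216 tested were lower in hasty and 33 in WT. The median log2 change of the 35 names was -1.28 in hasty and -0.98 in WT. In hasty against WT, 5 were lower in low N and 9 in control, and 1, miR169a-5p, was higher in each. Of all names, 23.4% were called lower in low N and 27.1% in control. Both exceptions were named after their values were seen.

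Profiles were compared over the 12 libraries as the root mean square difference of log2(CPM + 1) after centring each on its own mean, over 129 known names above 0 in all libraries. With the 4 members left out of the ranking, the profile nearest to miR397b was that of miR156c-3p, from the hairpin arm opposite the miR156 that regulates SPL genes, at 0.40 log2 units, followed by miR157c-3p (0.55), miR398a-3p (0.572), miR168a-3p (0.576) and miR169l with the other names of its sequence (0.593), where the median of all 129 was 1.05. The distance to miR397a, a member, was 0.479, which is nearer than all but miR156c-3p. This distance is uncertain, because miR397a had few counts and may hold misread reads of miR397b. Nearest to miR408-5p were miR171a-5p (0.224) and miR158a-3p (0.257), and nearest to miR408-3p were miR170-3p (0.225) and miR170-5p (0.243), which has the sequence of miR171a-5p. Their next neighbours outside the members were miR399c-3p, miR161.1 and miR171a-3p for miR408-5p (0.305 to 0.405), and miR399c-3p, miR158a-3p and miR156d-5p for miR408-3p (0.27 to 0.312). The arms of miR408 lay 0.317 from each other. For miR408-5p that is nearer than miR161.1 or miR171a-3p, but farther than miR171a-5p, miR158a-3p and miR399c-3p. For miR408-3p, every name listed above was nearer than its other arm. The median over the 129 names was 0.628 for miR408-5p and 0.567 for miR408-3p, and these distances carry no test.

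**Figure D5:**
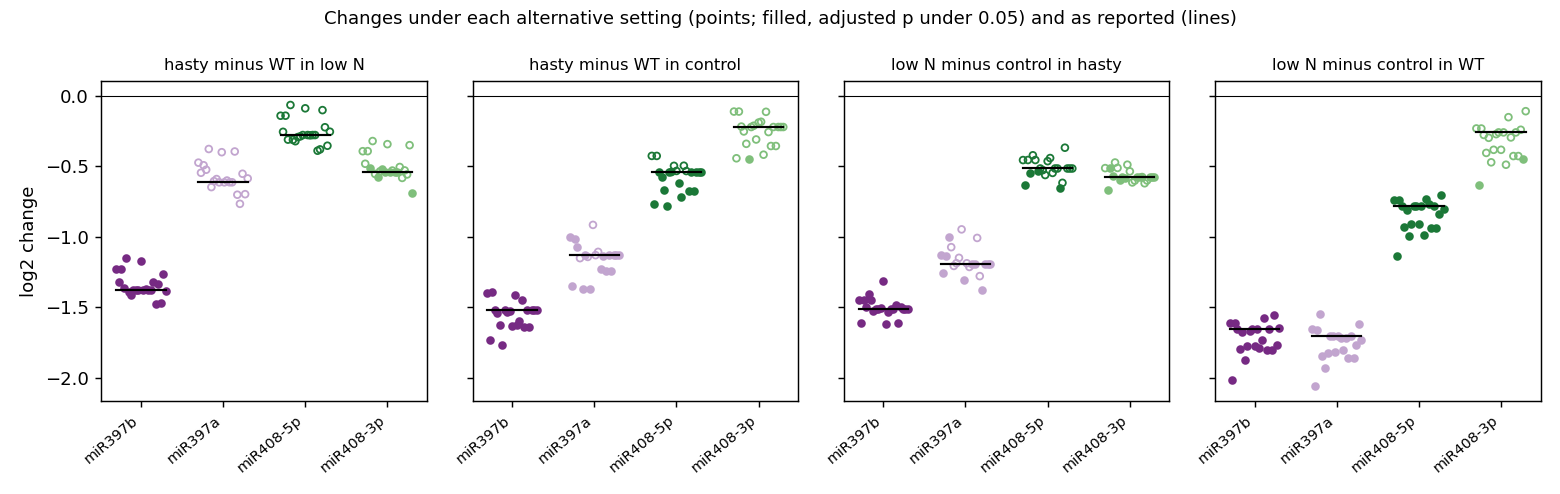
Log2 change of each member (columns of points, filled where the adjusted p was under 0.05) under each alternative setting, with a line at the value reported. The points of miR397b are filled under all settings in the 4 contrasts, and those of miR408-3p are open or filled depending on the setting in each.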

How the data were processed

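Small RNA libraries from 12 shoot samples were analysed from 1 table. The values are whole-number counts per miRNA name as deposited, under a TPM heading, with column sums of 1292752 to 3226269. Trimming, alignment and counting are not given in the sources used here, and the submitters' processing notes name only mm10, a mouse assembly. Columns were matched to samples by genotype, treatment and replicate number, with CK read as control. Names were matched to TAIR10.1 products (216 of 216 known names). The other 174 names are predicted and were used in the fit only.

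Counts were filtered with filterByExpr, scaled by TMM and fitted with edgeR 4.0.16 (glmQLFit and glmQLFTest, two-sided, 8 residual degrees of freedom) in R 4.3.3, with 1 coefficient per group. Adjusted p-values are Benjamini-Hochberg over 273 names, threshold 0.05. The SE is the log2 change divided by the square root of F, and 95% intervals use the total degrees of freedom of the fit. The test was checked on simulated data. Library ratios and shares were tested by exact permutation of 1 factor within the other (400 assignments, smallest p = 0.005, scipy 1.17.1), adjusted over 6 tests. The difference tested was the average over the levels of the other factor. Alternatives were median-of-ratios factors, library totals, DESeq2 1.42.0, limma 3.58.1, other filters, identical sequences counted once, only the groups compared, a replicate block, and fits without each single library over the same 273 names. Members, miR398 names and, for members with a mean of at least 10 CPM, the 5 nearest profiles were named by rule, and the members and lists were chosen with earlier results of these data known. Counts of replicates spread beyond counting error. PCR reads without molecular identifiers are not independent molecules. Of 18 same-numbered pairs of libraries, 7 had a correlation of deviations over 0.1 (range -0.31 to 0.40), so the numbers were not taken as pairing.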

Additional observations from a re-analysis of the deposited data

How the results depend on the processing

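The 4 changes of miR397b stayed negative and past the threshold under all 21 alternatives in each contrast, with log2 values of -1.48 to -1.15 for hasty in low N, -1.77 to -1.39 for hasty in control, -1.62 to -1.32 for low N in hasty and -2.02 to -1.56 for low N in WT. The low N changes of miR397a and miR408-5p in WT also kept their calls. Over all members and contrasts, 360 of the single-name results under an alternative kept their side of the threshold, 44 lost a call and 7 gained one, with no change of sign. Members called fell to 1 for hasty in low N with median-of-ratios factors, library totals, DESeq2, no filter, names at 10 CPM or more on average (which removes miR397a) or only the groups compared. They fell to 1 for low N in hasty with no filter or names at 10 CPM or more. The cause was not tested. Without 1 library the counts of members were 1 to 2 for hasty in low N, 1 to 3 for hasty in control, 1 to 3 for low N in hasty, 3 to 4 for low N in WT and 0 for the interaction.

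With the replicate number as a block, members called fell to 1 for hasty in control, where miR397a (-1.14, edgeR adjusted p = 0.0689) and miR408-5p (-0.54, 0.0673) were no longer called, and to 2 for low N in hasty, where miR397a was -1.15 (0.11). The interaction counted 3 names. By the correlations of deviations, 5 of 12 libraries were closest to their own number. All names called were 143 in DESeq2 for hasty in low N, 51 for low N in WT and 42 for low N in hasty with 1 mature sequence counted once, and 25 in DESeq2, 13 in limma and 3 with sequences counted once for the interaction. Without 1 library these counts were 79 to 100, 108 to 129, 49 to 71, 68 to 91 and 3 to 11 for hasty in low N, hasty in control, low N in hasty, low N in WT and the interaction. Scaling moved the median of all names. Library totals moved it by -0.21 for hasty in control, -0.33 for low N in WT and 0.27 for the interaction. Median-of-ratios factors moved it by 0.14 for hasty in low N. Calls of all names split into 31 higher and 64 lower for hasty in low N (median-of-ratios factors gave 47 and 59), 51 and 74 for hasty in control (36 and 81 with library totals), 24 and 41 for low N in hasty (median-of-ratios factors gave 32 and 39) and 47 and 41 for low N in WT (15 and 62 with library totals, 18 and 33 with sequences counted once).

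The ratio of miR397b to miR397a passed the threshold with 5 counts added to both names, at -0.89 for hasty and -0.60 for low N, since added counts weigh most on the few of miR397a. It turned to 0.0411 for low N without hasty control replicate 2. The miR408 arm ratio turned for hasty to -0.0041, -0.0345 and -0.0421 when hasty control replicate 1, the third WT low N library or the third hasty low N library was left out. Without 1 library these ratios were -0.72 to -0.44 and -0.24 to 0.04 for miR397 and -0.04 to 0.19 and 0.11 to 0.34 for miR408, by genotype and by nitrogen. Depth limits miR397a most, at 4 to 6 counts per library in hasty low N.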

Other observations

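Among annotated mRNAs, the fewest mismatches to miR397b were found not in a laccase but in CKB3, which encodes a regulatory subunit of casein kinase II: its site at chr3:22271862-22271882, in a coding exon, had 2 mismatches to miR397b and 3 to miR397a, the reverse of the laccase sites. The CKB3 site had 1 mismatch to miR397b in the seed, and 0 of its mismatches were G with T pairs. The LAC2 site had 0 mismatches in the seed, and 1 of its 3 mismatches was a G with T pair. Whether CKB3 transcripts respond was not measured.

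The number of GTAC motifs in the window and the low N change in WT can be set side by side. MIR398b and MIR398c held 5 and 3 motifs, and their products cannot be told apart (-1.19 for miR398b-3p and -1.47 for miR398b-5p). MIR397b held 4 (-1.66), MIR397a 3 (-1.71) and MIR408 4 (-0.78 for miR408-5p and -0.26 for miR408-3p), while MIR398a held 0 (-0.47 for miR398a-3p). In hasty the low N changes were -1.23 for miR398b-3p, -1.28 for miR398b-5p, -1.51 for miR397b and -1.19 for miR397a. They were -0.52 for miR408-5p, -0.58 for miR408-3p and -0.50 for miR398a-3p. These are descriptions of 6 genes, of which MIR398b and MIR398c are not separate measurements. Whether the number of motifs bears on the changes was not tested.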
